A study of Homo sapiens with 5 samples.

Results

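The nuclear pore complex genes are the 32 genes of a list of nucleoporins and of proteins held at the pore, chosen by symbol among the 26485 rows of the count table of RPE1 cells. All 32 were found, and all 32 were among the 14187 genes that passed edgeR's default filter on low counts and were tested. RPE1 is an established human cell line derived from retinal pigment epithelium, wild type in genotype. In this RNA-seq experiment 2 libraries came from cells given DMSO, the solvent control, 2 from cells given 0.2 µM doxorubicin and 1 from cells given 0.34 µM doxorubicin, all for 18 h. Doxorubicin is an intercalating anticancer drug that poisons topoisomerase II, and the comparison asks how it altered mRNA levels. The doses are those of the samples' treatment labels. The labels' treatment protocol instead gives far higher values in µM, with the same leading digits. The study's methods call the libraries biological replicates and pool the doses. Here, too, the 3 doxorubicin libraries were pooled against the 2 DMSO libraries, and the 0.34 µM dose has no replicate of its own.

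Nuclear pores are the large protein channels through which RNA and proteins cross the nuclear envelope. A scaffold of Y complexes and inner rings is anchored in the membrane, phenylalanine-glycine rich nucleoporins fill the channel, and filaments reach into the cytoplasm while a basket reaches into the nucleus. New pores are built both at the end of mitosis and during interphase, and several nucleoporins also act at kinetochores or on chromatin.

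The counts on genes summed to between 23773061 and 36725345 per library, and the nuclear pore genes took 0.281% and 0.335% of them in DMSO, 0.191% and 0.225% in 0.2 µM and 0.192% in 0.34 µM doxorubicin. The treatment was visible in CDKN1A (log2 fold change 3.39), MDM2 (2.19), PLK1 (-5.53) and CCNB1 (-3.87), of which the first pair are p53 targets and the second pair mitotic genes. These 4 passed edgeR's adjusted p of 0.01. Of 11 markers of retinal pigment epithelium, 7 were tested, and RPE65, RLBP1, TYR and TYRP1 had at most 8 counts in any library. Low counts were also found for BEST1 (14 to 142 per library), PMEL (5 to 46) and SERPINF1 (4 to 29). KRT8, KRT18, MITF and OTX2 were well detected. In bulk RNA, fewer cells of a kind, such as cells in mitosis, and less RNA per cell cannot be told apart, and the part of the mitotic genes' change in the values below was not tested.

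The promoters of 6 genes are shown first, since the lists of motifs below refer to them. They are those of the 3 members that passed the main test (NUP35, NUP50 and NUP62), of NDC1 and NUP205, which had the most negative log2 fold changes after NUP35, and of RAE1. Each line holds the 250 bases before an annotated transcription start in RefSeq (GRCh38.p14), read 5' to 3' on the strand of the gene, and the capitals mark matches to 3 motifs on either strand. The first is TTTGAA, the core of the cell cycle homology region (CHR), the second is CCAAT, the box bound by NF-Y, and the third is a form of the NRF1 motif, whose letters are the capitals in NUP50 and NUP62. They belong to NUP35 (chr2:183124193-183124442, plus strand), NUP50 (chr22:45163675-45163924, plus), NUP62 (chr19:49929505-49929754, minus), NDC1 (chr1:53838297-53838546, minus), NUP205 (chr7:135557667-135557916, plus) and RAE1 (chr20:57351292-57351541, plus), the last as the member with the largest positive log2 fold change.
NUP35: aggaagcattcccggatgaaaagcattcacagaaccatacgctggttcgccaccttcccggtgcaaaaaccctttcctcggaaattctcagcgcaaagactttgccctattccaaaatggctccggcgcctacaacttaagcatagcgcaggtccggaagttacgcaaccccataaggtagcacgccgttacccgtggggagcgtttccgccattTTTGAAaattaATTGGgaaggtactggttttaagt
NUP50: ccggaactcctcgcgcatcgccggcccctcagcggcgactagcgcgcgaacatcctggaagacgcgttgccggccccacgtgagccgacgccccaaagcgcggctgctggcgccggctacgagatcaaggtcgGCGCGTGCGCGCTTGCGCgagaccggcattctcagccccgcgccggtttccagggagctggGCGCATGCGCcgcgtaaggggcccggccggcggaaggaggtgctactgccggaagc
NUP62: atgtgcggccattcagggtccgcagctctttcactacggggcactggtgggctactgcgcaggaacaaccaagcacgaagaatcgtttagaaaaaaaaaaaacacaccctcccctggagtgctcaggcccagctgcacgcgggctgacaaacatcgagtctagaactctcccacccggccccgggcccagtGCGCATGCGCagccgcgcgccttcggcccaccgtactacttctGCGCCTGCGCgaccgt
NDC1: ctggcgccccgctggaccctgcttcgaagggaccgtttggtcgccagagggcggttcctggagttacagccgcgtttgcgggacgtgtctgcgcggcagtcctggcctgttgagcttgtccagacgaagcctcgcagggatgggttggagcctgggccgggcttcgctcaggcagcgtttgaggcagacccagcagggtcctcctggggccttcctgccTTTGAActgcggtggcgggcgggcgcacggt
NUP205: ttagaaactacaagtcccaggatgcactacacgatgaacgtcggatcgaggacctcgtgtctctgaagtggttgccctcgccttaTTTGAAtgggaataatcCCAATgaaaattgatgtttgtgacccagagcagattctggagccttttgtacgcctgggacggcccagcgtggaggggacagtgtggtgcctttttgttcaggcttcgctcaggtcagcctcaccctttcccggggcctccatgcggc
RAE1: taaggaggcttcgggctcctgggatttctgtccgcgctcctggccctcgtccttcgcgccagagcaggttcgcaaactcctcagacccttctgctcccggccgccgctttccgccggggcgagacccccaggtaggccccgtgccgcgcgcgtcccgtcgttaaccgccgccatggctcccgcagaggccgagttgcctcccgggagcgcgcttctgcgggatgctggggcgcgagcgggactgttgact
The CHR match began at position -35 from the start in NUP35, -31 in NDC1 and -165 in NUP205, and a CCAAT match lay at -24 in NUP35 and -148 in NUP205. NUP50 had NRF1 matches at -117, -109 and -56, the first and second of which overlap, and NUP62 had them at -59 and -16. The RAE1 stretch had no match to these 3 motifs. The motifs of ETS and E2F sites, counted further below, are not marked. Of these, the ETS core CCGGAAG occurs in the windows of NUP35 and NUP50. The printed stretches of NUP35 and RAE1 lie inside the RefSeq spans of these genes, which begin upstream at chr2:183117514 and chr20:57351255.

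Doxorubicin-treated cells had lower levels of most nuclear pore mRNAs. Of the 32 genes, 30 had a negative log2 fold change and 2 a positive one, against 48.9% negative among all genes tested. The median log2 fold change of the members was -0.65, against 0.013 for all genes tested. At an adjusted p of 0.01 (edgeR's quasi-likelihood test, adjusted by the Benjamini-Hochberg method over all genes tested), 3 of the 32 fell, namely NUP35, NUP50 and NUP62, and 0 rose. Among all genes tested 2.73% fell and 1.29% rose at this adjusted p of 0.01, or 4.02% in either direction. At an unadjusted p under 0.05 the same edgeR test gave 23 members lower and 0 higher, against 15.6% lower and 15.2% higher among all genes tested. At an adjusted p of 0.05, 12 were lower and 0 higher, against 7.48% lower and 6.1% higher among all genes tested. For 23 of the 32 every doxorubicin library lay below both DMSO libraries, for 0 they all lay above, and for 9 the groups overlapped. Such a separation was found with doxorubicin lower for 23.4% of all genes tested and with doxorubicin higher for 24.3%. DESeq2 called 13 members lower and 0 higher at 0.01, against 8.18% and 6.72% of the genes to which it gave an adjusted p. Limma voom called 2 lower, NUP35 and NUP50, against 2.59% of all genes tested.

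**Figure D1:**
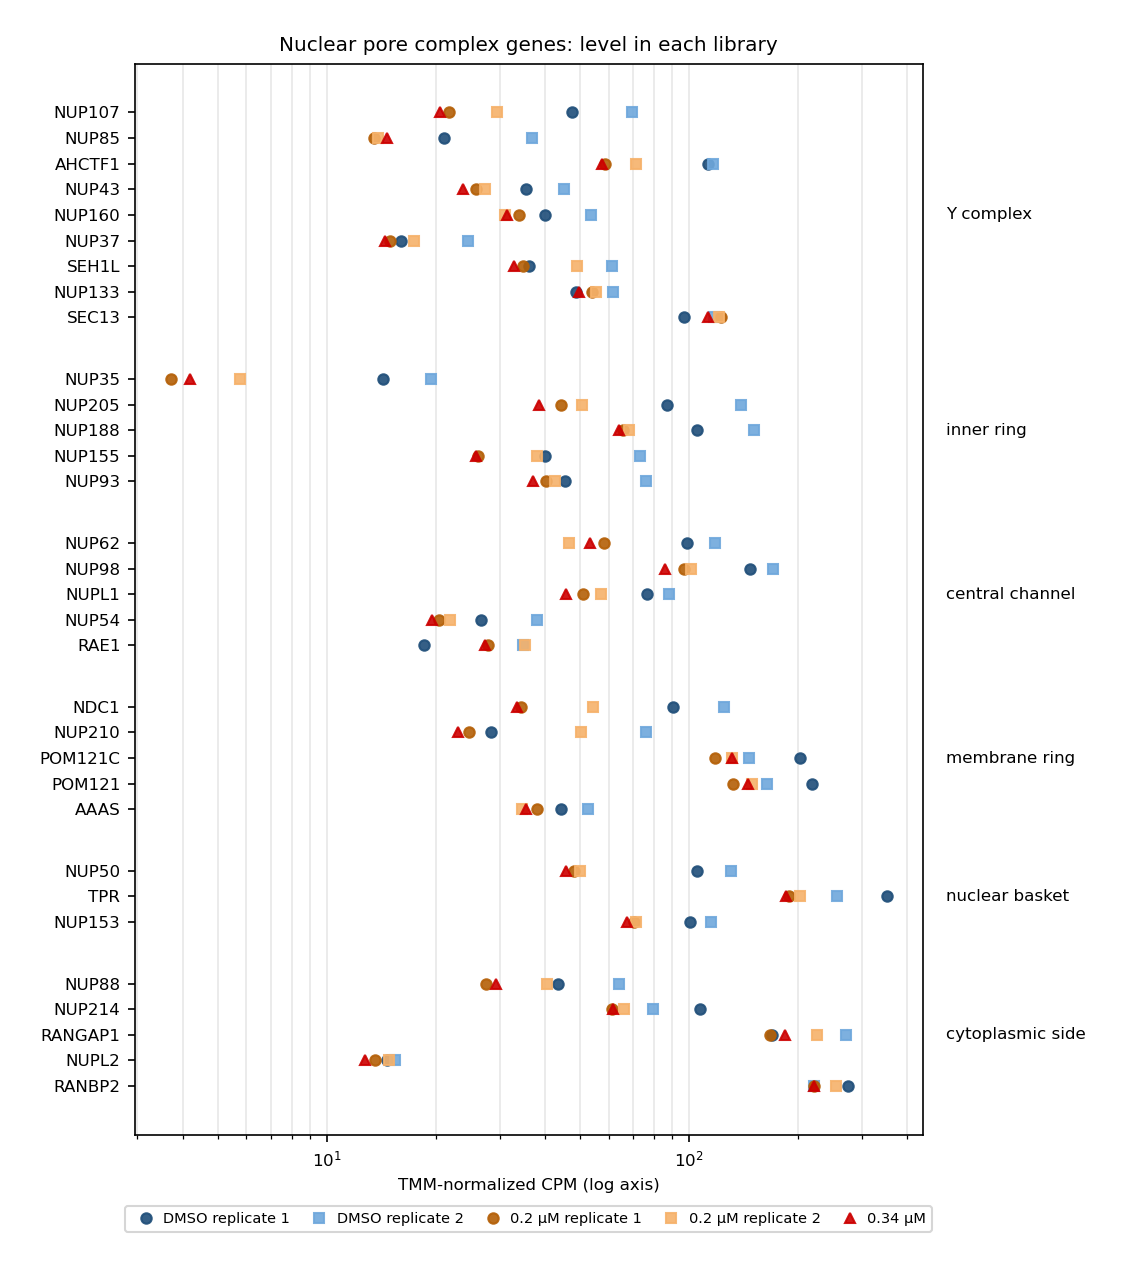
Level of each nuclear pore gene in each of the 5 libraries (TMM-normalized CPM, log axis), with circles and squares for replicates 1 and 2 of DMSO (blue) and 0.2 µM doxorubicin (orange) and a red triangle for 0.34 µM. For 23 of the 32 genes the 3 doxorubicin libraries lie to the left of both DMSO libraries, and NUP35 lies at the lowest level, between 3.71 and 5.78 in doxorubicin.

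**Figure D2:**
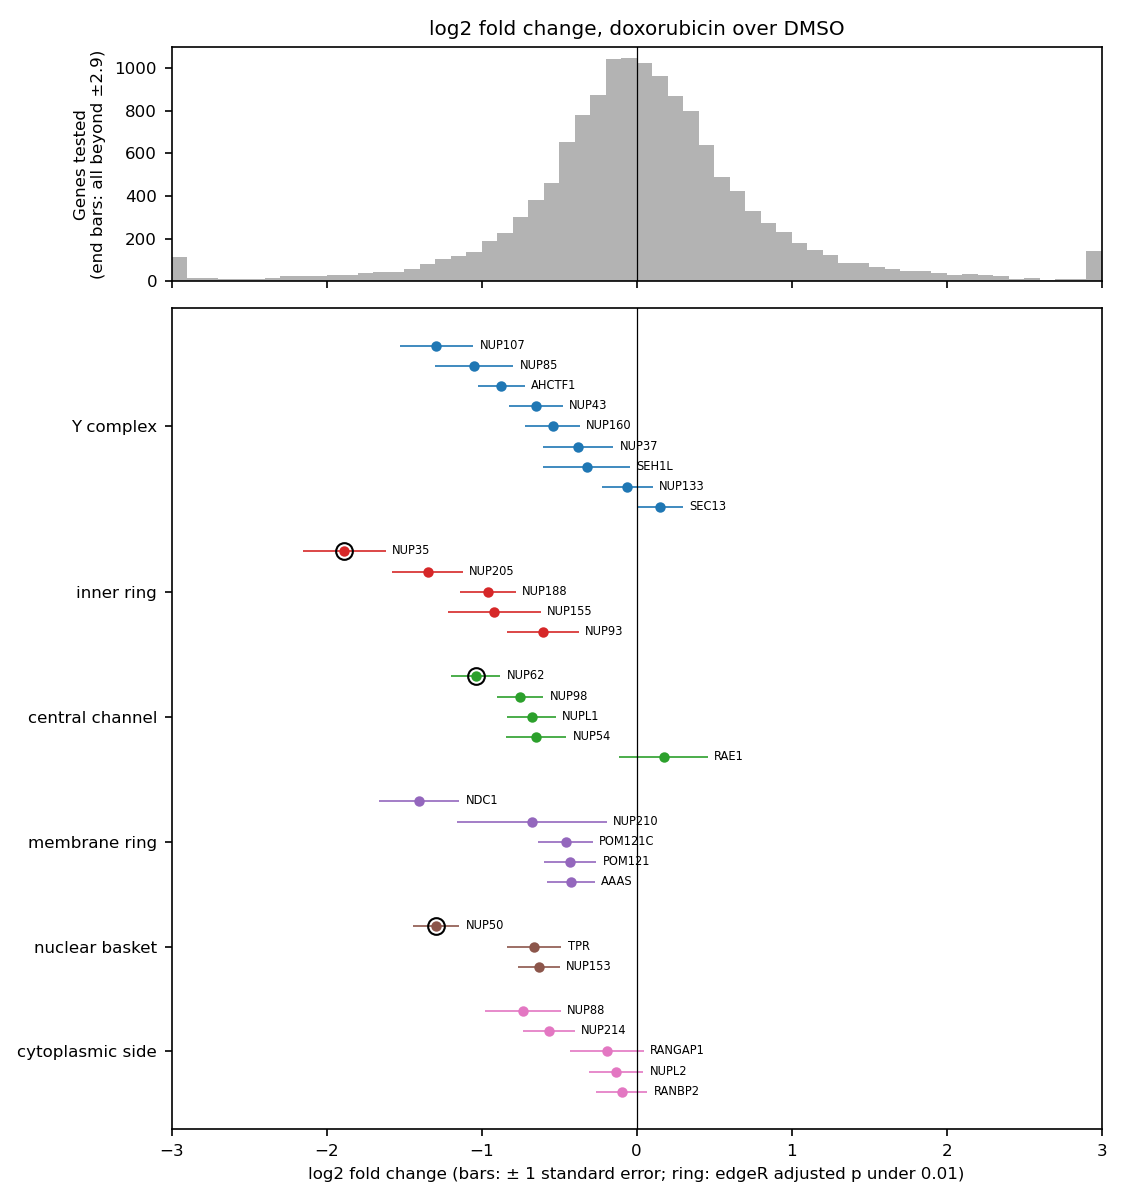
Log2 fold change of doxorubicin over DMSO for all 14187 genes tested (upper panel, number of genes per bar) and for each nuclear pore gene by its place in the pore (lower panel, points with bars of 1 standard error), with rings around the 3 genes at an edgeR adjusted p under 0.01. The members lie between -1.89 (NUP35) and 0.17 (RAE1), with a median of -0.65.

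The inner ring lies against the membrane and ties the scaffold to the channel. Its 5 genes were all lower in every doxorubicin library than in both DMSO libraries, with a median log2 fold change of -0.96. Such a separation was found for 23.4% of all genes tested. NUP35, which binds the membrane and other inner ring proteins, fell. Its level in TMM-normalized CPM, the counts relative to the size of the library, was 14.3 and 19.4 in DMSO, 3.71 and 5.78 in 0.2 µM and 4.19 in 0.34 µM doxorubicin. The doxorubicin libraries were thus far below both controls, at 27.1% of the DMSO mean. The mean was 16.8 ± 3.59 (SD, n = 2) in DMSO and 4.56 ± 1.08 (SD, n = 3) in doxorubicin, and the log2 fold change was -1.89 (standard error 0.27, edgeR adjusted p = 0.00772).

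The scaffold proteins NUP205 and NUP188 are large paralogs that bind NUP93. NUP205 had 87.1 and 139.5 CPM in DMSO, 44.4 and 50.6 in 0.2 µM and 38.5 in 0.34 µM doxorubicin, so that its highest treated library was well below its lowest control. The log2 fold change was -1.35 (standard error 0.23, edgeR adjusted p = 0.0133). NUP188 had 105.6 and 151 CPM in DMSO, 65.7 and 68.2 in 0.2 µM and 63.9 in 0.34 µM doxorubicin, the treated libraries lying close together. Its log2 fold change was -0.96 (standard error 0.18, edgeR adjusted p = 0.018). NUP155, a scaffold protein that joins the inner ring to the outer parts, had 40.0 and 73.4 CPM in DMSO and 26.1, 38.04 and 25.8 in doxorubicin, with 0.2 µM replicate 2 just under the lower control (log2 fold change -0.92, edgeR adjusted p = 0.0895). NUP93, the adaptor of the ring, had a log2 fold change of -0.60 (edgeR adjusted p = 0.135) and a treated range of 37.0 to 42.8 CPM, just below the 45.4 of DMSO replicate 1.

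The membrane ring holds the pore in the envelope. For 4 of its 5 genes the doxorubicin libraries lay below both DMSO libraries, against 23.4% of all genes tested. The median log2 fold change was -0.46. With edgeR 0 passed 0.01 and 4 were lower at an unadjusted p under 0.05 (15.6% of all genes tested were). DESeq2 called 1 lower at 0.01, against 8.18% of the genes to which it gave an adjusted p. NDC1, the transmembrane protein that recruits the inner ring, had 90.2 and 125.2 CPM in DMSO, 34.3 and 54.2 in 0.2 µM and 33.6 in 0.34 µM doxorubicin. The groups were well apart, and the log2 fold change was -1.40 (standard error 0.26, edgeR adjusted p = 0.0174), the second largest of the 32. NUP210, a glycoprotein whose large part lies in the lumen of the envelope, had 28.4 and 75.9 CPM in DMSO, 24.8 and 50.3 in 0.2 µM and 23.01 in 0.34 µM doxorubicin. Its groups overlapped and its replicates differed more than those of any other member, with a log2 fold change of -0.68 and a standard error of 0.49 (edgeR adjusted p = 0.395). Without DMSO replicate 2 its log2 fold change was 0.18. POM121 and POM121C, near-identical transmembrane nucleoporins, had log2 fold changes of -0.43 and -0.46 (edgeR adjusted p = 0.142 and 0.136). Of the stretches of 75 bases in their transcripts, 57.2% and 59.5% also occur in transcripts of other genes, chiefly each other, so that the split of reads between them is uncertain. AAAS, which encodes ALADIN, a partner of NDC1, had 44.4 and 52.6 CPM in DMSO and 34.7 to 38.1 in doxorubicin (log2 fold change -0.42, edgeR adjusted p = 0.117).

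In the nuclear basket, all 3 genes were lower in every doxorubicin library, against 23.4% of all genes tested. Their median log2 fold change was -0.66. NUP50, a mobile nucleoporin that binds importin alpha and helps to release cargo, fell. It had 104.9 and 130.5 CPM in DMSO, 48.3 and 49.9 in 0.2 µM and 45.8 in 0.34 µM doxorubicin. The treated libraries lay within a narrow range, at 40.8% of the DMSO mean. Its mean went from 117.7 ± 18.0 (SD, n = 2) to 48.0 ± 2.06 (SD, n = 3), and the log2 fold change was -1.29 (standard error 0.15, edgeR adjusted p = 0.0037). Of its stretches of 75 bases, 10.5% also occur in other transcripts, including the pseudogene NUP50P1. NUP153, which anchors the basket, had 100.8 and 115.3 CPM in DMSO, 70.6 and 71.2 in 0.2 µM and 67.3 in 0.34 µM doxorubicin, with the groups apart (log2 fold change -0.63, standard error 0.14, edgeR adjusted p = 0.0283). TPR, the filament protein of the basket and the member with the highest CPM in DMSO, had 351.5 and 256.6 CPM in DMSO and 185.9 to 202.2 in doxorubicin (log2 fold change -0.66, edgeR adjusted p = 0.053). It was one of 5 members with the higher level in DMSO replicate 1.

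The central channel is filled by nucleoporins with phenylalanine-glycine repeats, which form the barrier. For 4 of its 5 genes the doxorubicin libraries were below both controls, against 23.4% of all genes tested. The median log2 fold change was -0.68. NUP62, the core of the channel trimer with NUP54 and NUPL1 (NUP58), fell. Its level was 98.8 and 117.9 CPM in DMSO, 58.1 and 46.8 in 0.2 µM and 53.2 in 0.34 µM doxorubicin, with no overlap. The mean went from 108.4 ± 13.5 (SD, n = 2) to 52.7 ± 5.69 (SD, n = 3). The log2 fold change of -1.04 (standard error 0.16) had an edgeR adjusted p of 0.00995, just inside the threshold. Reads of NUP62 could include those of IL4I1 and ATF5, which overlap it on chromosome 19 and share part of the 16.5% of its stretches of 75 bases that occur in other transcripts.

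NUPL1 had 76.4 and 88.0 CPM in DMSO, 51.1 and 57.3 in 0.2 µM and 45.9 in 0.34 µM doxorubicin, again with no overlap (log2 fold change -0.68, standard error 0.16, edgeR adjusted p = 0.0366). NUP54 had a log2 fold change of -0.65 (edgeR adjusted p = 0.0739), with 26.6 and 38.03 CPM in DMSO and 19.6 to 21.9 in doxorubicin. All 3 genes of the trimer therefore lay lower in each treated library. NUP98, a nucleoporin that links the channel to the scaffold and docks RAE1, had 147.4 and 170.9 CPM in DMSO, 96.7 and 101.1 in 0.2 µM and 85.7 in 0.34 µM doxorubicin (log2 fold change -0.75, standard error 0.15, edgeR adjusted p = 0.022). RAE1, an mRNA export factor that binds NUP98 and also acts in mitosis, went the other way without passing the test. It had 18.6 and 34.9 CPM in DMSO, 28.0 and 35.3 in 0.2 µM and 27.3 in 0.34 µM doxorubicin, with 0.2 µM replicate 2 just above the higher control and the others between the controls (log2 fold change 0.17, standard error 0.29, edgeR adjusted p = 0.728). Without DMSO replicate 1, the lower control, its log2 fold change was -0.22.

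The Y complex is the outer scaffold, from which the pore is built after mitosis. Its 9 genes had a median log2 fold change of -0.54. For 5 of them the doxorubicin libraries lay below both controls, against 23.4% of all genes tested. With edgeR 0 passed 0.01 and 3 were lower at an adjusted p of 0.05, against 7.48% of all genes tested. At an unadjusted edgeR p under 0.05, 5 were lower (15.6% of all genes tested were). DESeq2 called 3 lower at 0.01, against 8.18% of the genes to which it gave an adjusted p. NUP107, the stem protein, had 47.5 and 69.8 CPM in DMSO, 21.8 and 29.5 in 0.2 µM and 20.6 in 0.34 µM doxorubicin. The groups were well apart (log2 fold change -1.29, standard error 0.24, edgeR adjusted p = 0.0173). NUP85, in a short arm, had 21.0 and 37.0 CPM in DMSO, 13.5 and 13.9 in 0.2 µM and 14.7 in 0.34 µM doxorubicin, where the treated libraries nearly coincided while the controls were far apart (log2 fold change -1.05, standard error 0.25, edgeR adjusted p = 0.0399). AHCTF1, which encodes ELYS and brings the Y complex to chromatin, had 112.7 and 116.2 CPM in DMSO, 58.7 and 71.4 in 0.2 µM and 57.4 in 0.34 µM doxorubicin. The controls nearly coincided here, and the log2 fold change was -0.87 (standard error 0.15, edgeR adjusted p = 0.0144). A share of 39.2% of its stretches of 75 bases occurs in other transcripts, chiefly the pseudogene AHCTF1P1.

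The other Y complex genes were closer to the controls. NUP43 and NUP160 had log2 fold changes of -0.65 and -0.54 (edgeR adjusted p = 0.0529 and 0.0894) with no overlap of the groups. NUP37 and SEH1L had -0.38 and -0.32 (edgeR adjusted p = 0.313 and 0.483), and their groups overlapped. NUP133, which forms the end of the stem next to NUP107, had 48.8 and 61.8 CPM in DMSO and 49.8 to 55.3 in doxorubicin, and its log2 fold change was -0.059 (standard error 0.16, edgeR adjusted p = 0.842). All its treated values lay between the controls. Without DMSO replicate 2 the log2 fold changes of NUP133 and SEH1L were 0.10 and 0.087. SEC13, which is also part of the COPII coat of secretory vesicles, had 96.7 and 117.5 CPM in DMSO, 122.6 and 121.4 in 0.2 µM and 113.0 in 0.34 µM doxorubicin. The 0.34 µM value fell between the controls, and the log2 fold change was 0.15 (standard error 0.15, edgeR adjusted p = 0.539). Genes of one subcomplex thus had log2 fold changes from -1.29 to 0.15, and the differences between members were not tested.

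On the cytoplasmic side, where mRNA and cargo complexes are taken apart, the median log2 fold change was -0.19 and 0 of the 5 genes passed an adjusted p of 0.01 with edgeR or DESeq2. At an unadjusted edgeR p under 0.05 there were 2, both lower, against 15.6% lower among all genes tested. NUP88 and NUP214, partners in the cytoplasmic filaments, were lower in every doxorubicin library, with log2 fold changes of -0.73 and -0.57 (edgeR adjusted p = 0.0947 and 0.0702). NUP88 overlaps RABEP1, and 38.5% of its stretches of 75 bases occur in that gene's transcripts. RANBP2, the main filament protein and a SUMO ligase, had 275.5 and 221.8 CPM in DMSO and 221.3, 254.3 and 221.9 in doxorubicin, values that overlapped almost completely (log2 fold change -0.097, standard error 0.16, edgeR adjusted p = 0.737). RANGAP1, the GTPase activator of Ran that RANBP2 holds at the pore, had 170 and 270.6 CPM in DMSO and 167.3, 226.1 and 184.7 in doxorubicin, with overlap (log2 fold change -0.19, standard error 0.24, edgeR adjusted p = 0.634). The log2 fold change of RANBP2 was 0.059 without DMSO replicate 1, and that of RANGAP1 was 0.16 without DMSO replicate 2. NUPL2 (NUP42), a partner of the export factor GLE1, had a log2 fold change of -0.13 (edgeR adjusted p = 0.661). Of the stretches of 75 bases in NUPL2, 33.1% occur in transcripts of another gene. For RANBP2 the share was 20.5%, with RGPD3 and RGPD4 among the genes that share them.

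The calls rested on all 5 libraries. With 1 library left out in turn, the edgeR adjusted p was 0.0151 to 0.0393 for NUP35, 0.00818 to 0.027 for NUP50 and 0.0198 to 0.0595 for NUP62, so that 1 member, NUP50, passed 0.01 without DMSO replicate 1 and 0 passed without any other library. The count over all genes tested went from 571 to between 49 and 215 in these fits. The number of members with a negative log2 fold change stayed at 30, except without DMSO replicate 2, where it was 26. The median of the members was between -0.80 and -0.52.

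Libraries of one condition differed in these genes in a shared direction. DMSO replicate 2 was above DMSO replicate 1 in 27 of the 32 genes, against 7167 of the 14187 genes tested. The median difference was 0.39 in log2 CPM, against 0.0067 over all genes tested. In 0.2 µM doxorubicin, replicate 2 was above replicate 1 in 28 of the 32, against 7404 of the 14187 genes tested. The median there was 0.14, against 0.021 over all genes tested. For 23 members both differences were positive, against 30.6% of all genes tested. The largest were those of NUP210, at 1.42 in DMSO and 1.02 in 0.2 µM, followed in DMSO by RAE1 (0.91), NUP155 (0.88) and NUP85 (0.81). TPR, POM121C, NUP214, POM121 and RANBP2 were the 5 members with lower levels in DMSO replicate 2.

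**Figure D3:**
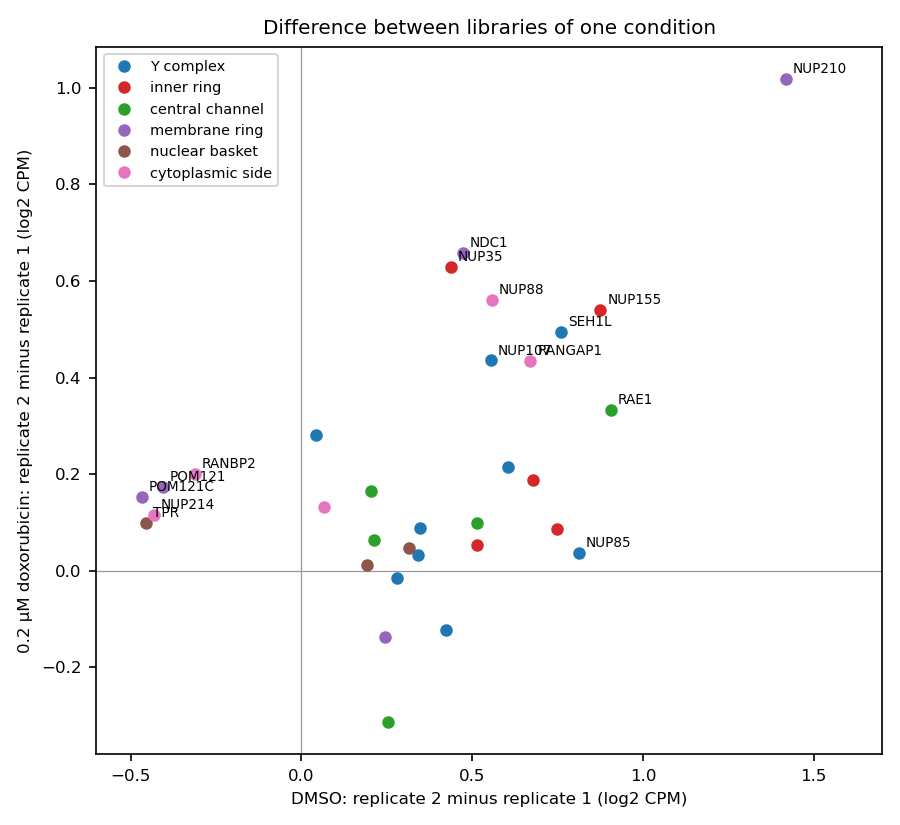
Difference between replicates 2 and 1 in log2 CPM for each nuclear pore gene, in DMSO (horizontal axis) and in 0.2 µM doxorubicin (vertical axis), coloured by place in the pore. Of the 32 genes 23 lie to the upper right of both zero lines, with NUP210 farthest out at 1.42 and 1.02.

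To compare levels between genes, CPM was divided by the length of the canonical transcript in kb. In DMSO the highest level per kb was that of SEC13, at 78.8 ± 10.8 CPM per kb (SD, n = 2), followed by RANGAP1 at 57.5 ± 18.6 and POM121 at 32.8 ± 6.48, and the lowest was that of NUP155 at 7.03 ± 2.93. Only SEC13 against RANGAP1 and RANGAP1 against POM121 did not overlap among the 31 pairs of neighbours in this order. Each range was taken over the libraries of a gene, although both genes of a pair were measured in the same libraries. An overlap therefore does not show that neighbours had equal levels. In doxorubicin 7 of 31 neighbour pairs did not overlap. The level of NUP35 per kb went from rank 23, at 10.9 ± 2.33, to the lowest rank, 32, at 2.95 ± 0.70 (SD, n = 3). NDC1 went from rank 10 to 19 and NUP62 from 4 to 9. RAE1 went from rank 22 to 11, while its own level changed little beside its spread. That level was 11.2 ± 4.84 CPM per kb (SD, n = 2) in DMSO and 12.7 ± 1.85 (SD, n = 3) in doxorubicin. Across the 32 genes Spearman's rho of the log2 fold change was -0.115 with the span of the gene and 0.0843 with the DMSO level per kb, values that describe genes measured in the same libraries. Pearson's r with the span was 0.197, of the other sign. The span taken for RANBP2 was 1122.82 kb, against 122.5 kb for NUP98, the next widest.

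**Figure D4:**
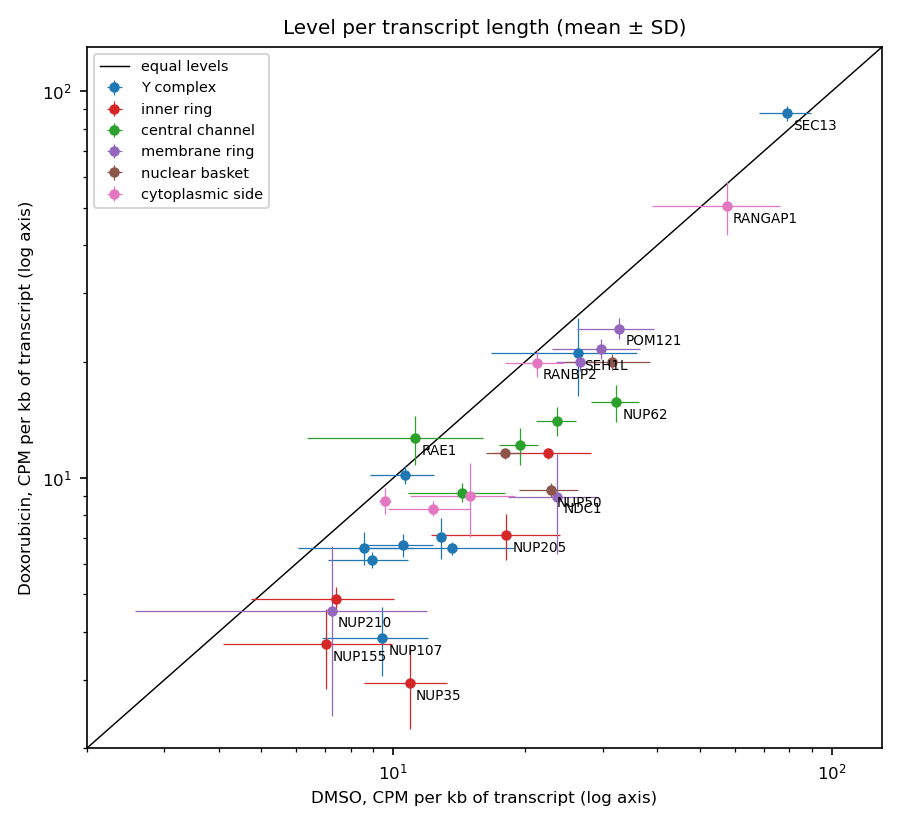
Mean level per kb of canonical transcript in DMSO (horizontal, n = 2) and doxorubicin (vertical, n = 3) for the 32 nuclear pore genes, both on log axes in CPM per kb with bars of 1 SD, and the line of equal levels. SEC13 and RAE1 lie above the line, and NUP35 lies farthest below it, at 10.9 in DMSO and 2.95 in doxorubicin.

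No difference between the doses was detectable for these genes. At 0.34 µM against 0.2 µM, a contrast whose spread came from the DMSO and 0.2 µM pairs, 0 members passed an adjusted p of 0.01, and 0 of all genes tested did, with edgeR, DESeq2 or voom. At an unadjusted edgeR p under 0.05 there were 0 members and 22 of all genes (0.155%). The members' log2 differences were between -0.71 (NUP210) and 0.097 (NUP85), with a median of -0.15, and 28 were negative, against 53.1% of all genes tested. Their standard errors of 0.25 to 0.64 on the log2 scale are of the size of many of the changes against DMSO. At 0.2 µM alone against DMSO the median was -0.60 and 0 members passed 0.01 with edgeR (1.21% of all genes tested did), while 15 were lower at an unadjusted p under 0.05, against 9.73% of all genes tested. DESeq2 called 6 lower, against 4.18% of the genes to which it gave an adjusted p, and voom called 0, against 0.881%. NUP50 had the smallest edgeR adjusted p among them, at 0.0272, with a log2 fold change of -1.26, and NUP35 had a log2 fold change of -1.83 (edgeR adjusted p = 0.0438).

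The carriers that move through the pore, and the Ran cycle that drives them, were described with 4 further lists of 60 genes, all tested in the same fit. Of these, 5 fell at an edgeR adjusted p of 0.01 and 0 rose, against 2.73% lower and 1.29% higher among all genes tested. Among 19 importins, 2 fell, with a median log2 fold change of -0.22. KPNA2, an importin alpha, had 332.6 and 399.6 CPM in DMSO, 79.1 and 92.2 in 0.2 µM and 72.7 in 0.34 µM doxorubicin (log2 fold change -2.17, standard error 0.17, edgeR adjusted p = 0.00112). KPNB1, importin beta and the partner of KPNA2, had 666.5 and 837.3 CPM in DMSO, 292.2 and 316.4 in 0.2 µM and 246.4 in 0.34 µM doxorubicin (log2 fold change -1.40, standard error 0.18, edgeR adjusted p = 0.0058). In both genes the treated libraries lay far below the controls. KPNA7, with the largest positive change, had 2 counts in each DMSO library, against 10 and 8 in 0.2 µM and 23 in 0.34 µM doxorubicin. It passed the filter on low counts only through the doxorubicin libraries, so that it could only appear as a rise. Its ratio was 6.15 (95% exact binomial interval 2.23 to 23.6, covering counting error only), and it did not pass the test (edgeR adjusted p = 0.0519).

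All 8 exportins had negative log2 fold changes, with a median of -0.54, and 1 fell. Among all genes tested 48.9% were negative and 2.73% fell at an edgeR adjusted p of 0.01. XPOT, which carries tRNA out of the nucleus, had 206 and 201.2 CPM in DMSO, 94.6 and 100.3 in 0.2 µM and 83.8 in 0.34 µM doxorubicin, with both groups narrow (log2 fold change -1.13, standard error 0.14, edgeR adjusted p = 0.005). RANBP17 had the largest change, -1.19, on 13 to 67 counts per library (edgeR adjusted p = 0.217). All 12 genes of the Ran cycle and SUMO partners were also negative, with a median of -0.62, and 2 fell, beside the same shares. RANBP1, the cofactor of RANGAP1, had 139.5 and 166.3 CPM in DMSO, 41.5 and 56.1 in 0.2 µM and 37.1 in 0.34 µM doxorubicin (log2 fold change -1.77, standard error 0.21, edgeR adjusted p = 0.00384). SENP1, a SUMO protease bound at the pore, had 48.8 and 43.0 CPM in DMSO, 22.9 and 21.4 in 0.2 µM and 18.9 in 0.34 µM doxorubicin (log2 fold change -1.12, standard error 0.16, edgeR adjusted p = 0.00806). Of 21 mRNA export genes 0 passed with edgeR and 5 were lower at an unadjusted p under 0.05 (15.6% of all genes tested were). DESeq2 called 2 lower at 0.01, against 8.18% of the genes to which it gave an adjusted p. The median was -0.26, with values from -0.99 (DDX39A, edgeR adjusted p = 0.103) to 0.28 (THOC3, edgeR adjusted p = 0.396). With 1 library left out, 0 to 3 of the 60 genes fell, with 0 without DMSO replicate 2. KPNA2 passed in 4 of the 5 fits and RANBP1 in 1, and RCC1 and DDX39A passed without DMSO replicate 1 although neither did with all libraries. The log2 fold change of DDX39A was -1.50 in that fit (edgeR adjusted p = 0.0089) and -0.23 without DMSO replicate 2.

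**Figure D5:**
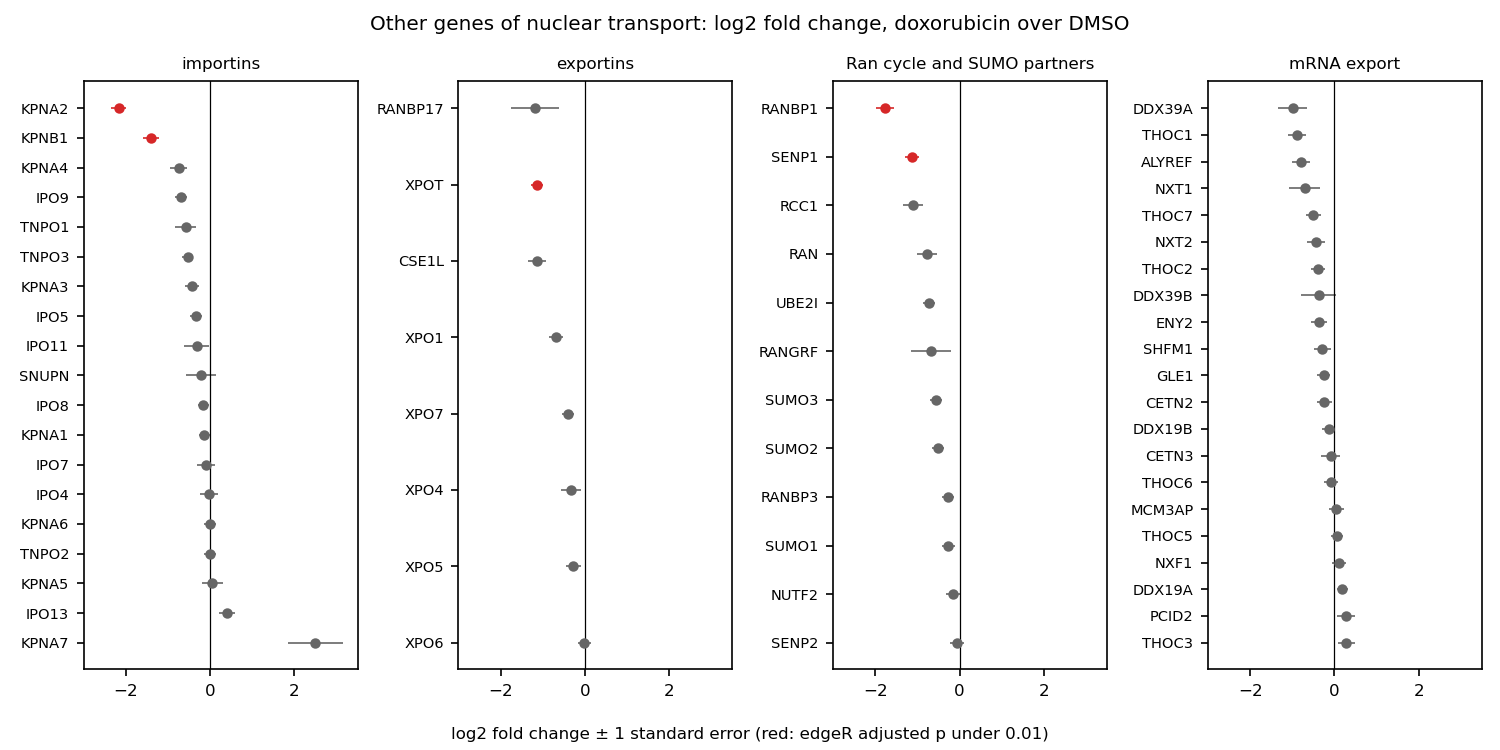
Log2 fold change of doxorubicin over DMSO for the genes of 4 lists of nuclear transport, with bars of 1 standard error and red for an edgeR adjusted p under 0.01. The 5 red genes, KPNA2, KPNB1, XPOT, RANBP1 and SENP1, lie between -2.17 and -1.12, and no gene is red on the positive side.

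For promoters, 30 of the 32 genes matched entries in the RefSeq table by their current symbols, with 39 windows of 300 bases in all (250 before to 50 after each start). NUP43 and AHCTF1 are named only. TTTGAA on either strand was present in 11 of the 39 windows (28.2%), against 15.2% of all 35116 windows and 10.6% of the windows of genes tested here. The windows with it belong to 9 genes, of which NUP98 has a pair that overlap. By gene, TTTGAA was found in 13.8% of the genes tested with a promoter entry and in 18.2% of all genes with one. It was found in 6 of the 11 members with an edgeR adjusted p under 0.05 and a promoter entry (NUP35, NDC1, NUP205, NUP50, NUP98 and NUP153). Of the other 19 it was found in 3 (NUP37, NUP93 and RANGAP1). In NUP50 it lay in a second window, not in the one printed. The letters CCGGAAG, the core of ETS sites, were present in 35.9% of the members' windows, against 10.3% of all and 16.1% of those of genes tested. The CCAAT box was present in 35.9%, against 34.6% of all, and the NRF1 motif in 10.3%, against 5.78% of all and 9.64% of those of genes tested. Any of TTTCCCGC, TTTGGCGC, TTTCGCGC and TTTGCCGC, forms of the E2F site, was present in 2.56%, against 3.31% of all. Split by gene in the same way, CCGGAAG was in 4 of the 11 and 9 of the other 19, and CCAAT in 5 and 6. The NRF1 motif was in 3 and 1, and the E2F forms in 0 and 1. Among genes tested with a promoter entry, the shares were 21.5%, 43.1%, 13.1% and 6.49% in this order. All these shares and counts describe letters in fixed windows and were not tested.

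On the genome, 18 of the 32 genes overlap another RefSeq gene and 13 share over 5% of their stretches of 75 bases with transcripts of other genes. The overlaps of RANBP2 rest on its wide span of 1122.82 kb. NUP35 spans chr2:183117514-183161680 and shares none of these stretches. NUP50 spans chr22:45163925-45188017 and NUP62 chr19:49906825-49929504, both on GRCh38. The libraries were made with a stranded kit, while the sources used here do not give the strand setting of the counting, so reads of antisense or overlapping genes may be included in the counts.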

How the data were processed

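RNA-seq of 5 RPE1 libraries was analysed, while Hi-C and ChIP-seq data of the study were not used here. The authors aligned reads of poly-A RNA to hg38 (STAR), obtained counts per gene with featureCounts of Rsubread and deposited them without normalization. The sources used here give neither versions nor the strand setting. The authors' table of DESeq2 results (mean normalized signal, log2 fold change, score and p-values of their own comparison) was not used.

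Counts were tested with edgeR 4.0.16 in R 4.3.3 (TMM, minimum count of 10 and minimum total of 15, quasi-likelihood test, Benjamini-Hochberg adjustment over 14187 genes, threshold 0.01). Standard errors are the log2 fold change over the root of F. DESeq2 1.42.0 and limma 3.58.1 (voom) were alternatives, beside other scalings, filters, groupings, a replicate block and leaving out each library. Log2 CPM used a prior count of 2. Scripts were tested on simulated data. Libraries of one condition differed by more than sampling noise (chi-square per degree of freedom 117 in DMSO, 75.3 in 0.2 µM). Named genes are all members, transport genes past the threshold or with the largest change either way in a list, the 4 treatment check genes and the epithelial markers. Members and lists were chosen with earlier results of these data known.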

Additional observations from a re-analysis of the deposited data

How the results depend on the processing

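The number of members that fell was 3 in the fit reported and 13 with DESeq2, 8 with every gene of at least 1 count kept, 12 at an adjusted p of 0.05, 0 with the mean of both doses against DMSO in a fit of 3 conditions, and 0 to 1 with 1 library left out. For the transport genes it was 5, and 16 with DESeq2, 12 at 0.05, 2 in the fit of 3 conditions and 0 to 3 with 1 library left out. At 0.2 µM alone the members' count was 0, and 6 with DESeq2. The counts at 0.05 come from the fit reported, read at a looser threshold, and fewer libraries were fitted with 1 library left out. The cause of the other moves was not tested. NUP62, just inside the threshold, was not called with voom (adjusted p = 0.0112), with DESeq2's size factors in edgeR or with upper quartile factors. The calls over all genes tested were 571, and 2073 with DESeq2, 1020 with every gene kept, 1927 at 0.05 and 323 in the fit of 3 conditions.

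With the replicate number as a block, 10 members, 9 transport genes and 1546 of all genes were called, and 8 members at 0.2 µM. The labels do not say that a number marks a shared culture or day, and there are only 2 pairs; the differences between replicates 2 and 1 in DMSO and in 0.2 µM had r = 0.528 across 14187 genes, which are not independent replicates.

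The median of the members stayed between -0.80 and -0.52 with 1 library left out, and that of the transport genes, -0.33 in the fit reported, between -0.47 and -0.29. With 1 library left out, 6 genes turned sign, with log2 fold changes of -0.22 to 0.68 for RAE1, -0.26 to 0.059 for RANBP2, -0.23 to 0.10 for NUP133, -0.67 to 0.087 for SEH1L, -1.23 to 0.18 for NUP210 and -0.50 to 0.16 for RANGAP1. The comparison of doses could not be fitted without the 0.34 µM library. There were 2 controls and 1 library at 0.34 µM, and depth was not varied.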

Other observations

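Among the 10 pairs of libraries, 0.2 µM replicate 1 and the 0.34 µM library were the most alike, with a chi-square per degree of freedom of 9.01 and a median absolute difference of 0.098 in log2 CPM over the nuclear pore genes. The 0.2 µM replicates differed by 0.159 in the same measure, and the DMSO replicates by 0.445. The difference between DMSO replicate 2 and the 0.34 µM library was 0.928. Of the 7 epithelial markers tested, 5 had a positive log2 fold change, with a median of 0.63. With edgeR 0 passed the threshold of 0.01 and 4 were higher at an unadjusted p under 0.05 (15.2% of all genes tested were). DESeq2 called 1 higher at 0.01, against 6.72% of the genes to which it gave an adjusted p. The largest log2 fold change was that of PMEL, at 2.29 on 5 to 46 counts per library. PMEL is one of the 4 markers higher at an unadjusted edgeR p under 0.05. It passed the filter on low counts only through the doxorubicin libraries, so that it could only appear as a rise.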
